A study of Mus musculus with 23 samples.

Results

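Conventional type 1 dendritic cells (cDC1) take up material of dying cells and present it to CD8+ T cells, a step that starts antitumor T cell responses. Their development depends on the growth factor FLT3L and its receptor FLT3 and on the transcription factors IRF8 and BATF3, and mature cDC1 carry XCR1, the receptor for the chemokine XCL1 that natural killer cells and T cells secrete. The genes described here are 10 that mark or build this cell type, chosen by name: Clec9a, Batf3, Irf8, Itgae, Cadm1, Flt3, Flt3l, Zbtb46, Wdfy4 and Tlr3. Of these, 9 were found among the 47643 gene identifiers of the deposited tables, and Flt3l was not analysed here. They were followed across 23 mouse mammary tumors, together with Xcl1 and Xcr1 in the same tumors.

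All tumors arose in female mice of C57BL/6 background that carry the polyoma virus middle T oncoprotein transgene (PyMT), a mammary carcinoma model. In the neutralization experiment, PyMT WT mice received isotype IgG (IgG, n = 5) or an antibody against IL-38 (anti-IL-38, n = 6), a member of the IL-1 family with receptor antagonist activity, starting when the first tumor measured 0.6 cm. In the genotype experiment, which started at 13 weeks of age, PyMT WT mice received IgG (WT_IgG, n = 4) and PyMT IL-38 KO mice, which lack IL-38 in every cell, received IgG (KO_IgG, n = 4) or an antibody against the γδ TCR (KO_gdTCR, n = 4), which blocks receptor signaling and was not used to deplete the cells. Treatment was weekly for 5 weeks in all groups. The control IgG differed between the experiments. It was human IgG1 in the neutralization experiment and polyclonal Armenian hamster IgG, at other doses, in the genotype experiment. Each library was 3′ mRNA sequencing of RNA from a dissociated whole tumor, so that fewer cells of a type and less RNA per cell cannot be told apart.

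Libraries held 6273049 to 15879164 reads on genes. The 4 KO_gdTCR libraries and KO_IgG replicate 4 stood apart from the other 18: they had 6273049 to 8794202 reads against 10138353 to 15879164, and processed pseudogenes took 1.31 to 1.98% of their reads against 0.0943 to 0.191%. The 5 libraries also held 11.3 to 20.1% of their reads on Gm42418 against 2.62 to 5.70% in the others. The main results that KO_IgG replicate 4 enters are therefore given with and without it, and no KO_gdTCR library is of the other kind. Il1f10, which encodes IL-38, had 0 reads in all 23 libraries, which allows up to 0.189 to 0.478 CPM (reads scaled to the library total), so the knockout labels were not checked by that gene. Krt8 of epithelial cells and Ptprc of leukocytes had at least 455 and 1412 reads in every library.

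The members differ in how deeply they were counted. Irf8, which also acts in macrophages and B cells, had 188 to 2498 reads per library and Cadm1, an adhesion molecule of cDC1 that epithelial cells carry as well, had 525 to 2501. Tlr3, the endosomal receptor for double-stranded RNA, had 242 to 921 reads, and Wdfy4, needed for cross-presentation by cDC1, had 44 to 444. Batf3, the partner of IRF8, had 9 to 155, and Zbtb46, a transcription factor of conventional dendritic cells, had 32 to 120. The sparsest were Clec9a, Itgae, Flt3 and Xcr1: Clec9a, the receptor for F-actin of dead cells, had 1 to 52 reads, Itgae (CD103 integrin chain, also on tissue T cells) 0 to 37, Flt3 0 to 43 and Xcr1 0 to 21. Xcl1 was sparse as well, with 3 to 83 reads, and 3 to 19 in IgG. Counting error alone is therefore large for these 4 genes and for Xcl1.

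Promoters of the partner transcription factors Irf8 and Batf3 are shown because the GAS element, the STAT binding letters TTCNNNGAA, was found in both, and in 8.33% of 32544 mouse promoters of the same 300 bases (RefSeq, GRCm38.p6). Bases run from 250 before to 50 after the start of the gene. Capitals mark the GAS letters, which begin at bases 80 and 98 of the Irf8 window and at base 12 of the Batf3 window.
Irf8 promoter, chr8:120736108-120736407, plus strand: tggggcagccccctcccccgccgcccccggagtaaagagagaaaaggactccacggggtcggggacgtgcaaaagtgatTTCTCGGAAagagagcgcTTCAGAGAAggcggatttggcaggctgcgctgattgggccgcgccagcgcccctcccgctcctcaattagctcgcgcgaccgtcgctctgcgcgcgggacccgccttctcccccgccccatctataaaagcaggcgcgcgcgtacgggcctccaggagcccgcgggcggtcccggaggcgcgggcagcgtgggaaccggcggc
Batf3 promoter, chr1:191098164-191098463, plus strand: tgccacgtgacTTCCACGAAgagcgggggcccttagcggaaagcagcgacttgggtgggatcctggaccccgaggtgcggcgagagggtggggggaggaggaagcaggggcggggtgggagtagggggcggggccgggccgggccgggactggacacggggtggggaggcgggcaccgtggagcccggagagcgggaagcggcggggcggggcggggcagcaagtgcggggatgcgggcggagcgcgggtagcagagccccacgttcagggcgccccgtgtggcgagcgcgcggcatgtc
The table holds another Irf8 window, chr8:120738389-120738688 on the plus strand, which has no GAS match. Both strands were searched, and the GAS search was chosen after the values were seen. The letters were in none of the windows of Clec9a, Flt3, Flt3l, Zbtb46, Wdfy4, Tlr3, Xcl1 and Xcr1. Other letters searched were those of IRF factors, GAAA before and after any 2 bases (3.45% of promoters), found in the Flt3l window, and TGANTCA of AP-1 (7.79%), found in that of Zbtb46. The ETS-IRF letters, GGAA and GAAA around any 2 bases (2.73%), GAGGAAGT of PU.1 (3.11%) and the composites of AP-1 with IRF in either order (0.120 and 0.144%), which overlap TGANTCA, were in no window of these genes. Itgae and Cadm1 had no promoter in the table used. A match describes letters in a window and no binding was measured.

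Across the 5 groups, the order of levels was set on CPM with library totals adjusted by TMM scaling over all 23 libraries. The CPM limits of Il1f10 above used unadjusted totals. Batf3 stood highest in IgG at 8.97 ± 2.26 CPM (SD, n = 5) and lowest in KO_gdTCR at 1.97 ± 0.704 CPM (SD, n = 4). Irf8 likewise ran from 162 ± 15.7 CPM in IgG to 36.8 ± 1.58 CPM in KO_gdTCR, and Wdfy4 from 22.8 ± 5.94 to 8.45 ± 1.85 CPM. In these genes IgG, anti-IL-38 and WT_IgG were the 3 upper groups, KO_IgG came next and KO_gdTCR last. The SDs of neighbours in the order were separate for Batf3 and Wdfy4 at the step to KO_IgG and for Irf8 at the step from KO_IgG to KO_gdTCR, and they overlapped at the other steps of these 3 genes. Without replicate 4, KO_IgG was at 4.82 ± 1.13 CPM for Batf3, 103 ± 13.7 CPM for Irf8 and 14.5 ± 1.77 CPM for Wdfy4 (SD, n = 3). Its SDs were then apart from those of KO_gdTCR for all 3 genes, and from those of WT_IgG for Wdfy4 alone. All libraries of KO_gdTCR are of the kind that stood apart, so the group and that kind cannot be told apart in this order. No test was run on this order, since the groups of different experiments, with different control IgG, are compared in it.

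Clec9a ran from 2.71 ± 0.711 CPM in WT_IgG to 1.02 ± 0.941 CPM in KO_gdTCR, and no neighbours in its order were apart by more than their SDs. Zbtb46 had another order: WT_IgG and KO_gdTCR were highest at 8.40 ± 1.04 and 8.31 ± 1.48 CPM, and KO_IgG, IgG and anti-IL-38 followed at 5.91, 5.72 and 4.34 CPM. The SDs of KO_gdTCR and KO_IgG were separate there, with KO_IgG at 5.70 ± 0.534 CPM without replicate 4 as well, and those of the other neighbours overlapped. Cadm1 ran the opposite way to Irf8, from 171 ± 36.7 CPM in KO_gdTCR to 83.2 ± 25.8 CPM in IgG. Itgae was highest in KO_IgG at 1.58 ± 0.374 CPM and lowest in IgG at 0.278 ± 0.302 CPM, with 2 IgG libraries at 0. Flt3 ran from 1.94 ± 1.16 CPM in WT_IgG to 0.425 ± 0.313 CPM in IgG, and Tlr3 stayed between 37.4 and 48 CPM. In Cadm1, Itgae, Flt3 and Tlr3 the SDs of all neighbours overlapped. Xcl1 was highest in anti-IL-38 at 2.83 ± 1.75 CPM and lowest in IgG at 0.768 ± 0.524 CPM, and Xcr1 was highest in anti-IL-38 at 0.910 ± 0.189 CPM and lowest in WT_IgG at 0.300 ± 0.285 CPM, with overlapping SDs at every step of both.

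**Figure D1:**
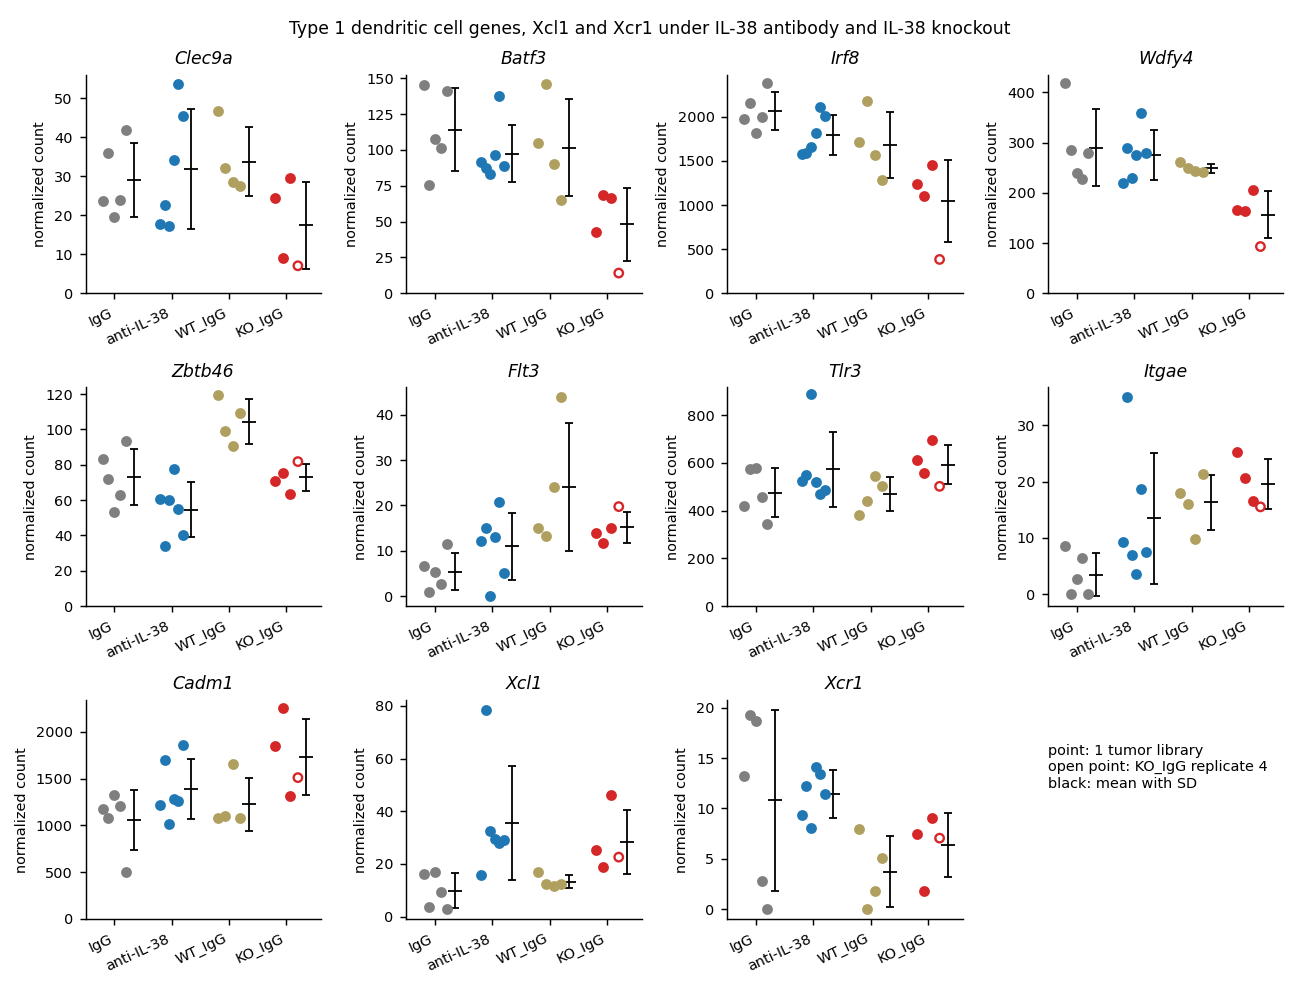
Normalized counts (y axis, linear) of the 9 measured type 1 dendritic cell genes, Xcl1 and Xcr1 in the 19 tumors of the neutralization and genotype experiments; each point is 1 tumor, black marks give the mean and SD, and the open point is KO_IgG replicate 4. Wdfy4, Zbtb46 and Xcl1 of KO_IgG do not overlap WT_IgG, and the open point is the lowest tumor for Irf8, Batf3, Wdfy4 and Clec9a.

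The first comparison asked whether IL-38 neutralization changed these genes. None of the 9 members passed the test on anti-IL-38, at a threshold of 0.05 on the adjusted p of limma, and 0 of 16002 genes (0%) did. At an unadjusted p under 0.05, 1 member, on the higher side, and 10.5% of all genes were counted, 4.91% of genes on the lower side. Leaving out single libraries gave 0 to 3 members at that p, beside 8.22 to 14.5% of genes. The count was 0 without IgG replicate 2, IgG replicate 5 or anti-IL-38 replicate 2. It was 3 without anti-IL-38 replicate 3, beside 9.18% of genes. The median log2 difference of the members was 0.06, against 0.0019 for all genes. DESeq2 on the recovered reads called 75 genes (0.469%), with no member among them, and edgeR called 0.

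Among the transcription factors, Irf8 was at 1975, 2156, 1812, 2001 and 2381 normalized counts with IgG and ranged from 1584 to 2114 with a median of 1739 with anti-IL-38. The groups overlapped, with the 3 lowest values of all 11 tumors in anti-IL-38. The log2 difference was -0.20 ± 0.11 (SE) with a 95% interval of -0.45 to 0.04 (adjusted p = 0.527). Batf3 was at 145, 75.4, 108, 101 and 141 with IgG and ranged from 83.2 to 137 with a median of 90.1 with anti-IL-38. Its log2 difference was -0.21 ± 0.21 (SE) (adjusted p = 0.731), and the anti-IL-38 tumors lay within the IgG range. Zbtb46 was at 83.1, 71.7, 53.5, 62.7 and 93.4 with IgG and ranged from 34 to 77.8 with a median of 57.4 with anti-IL-38, a log2 difference of -0.43 ± 0.25 (SE) (adjusted p = 0.543).

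Clec9a was at 23.6, 35.9, 19.6, 24 and 41.9 with IgG and ranged from 17.3 to 53.7 with a median of 28.4 with anti-IL-38. High and low tumors occurred in both groups, and the log2 difference was 0.06 ± 0.36 (SE) with a 95% interval of -0.72 to 0.83. Itgae was at 8.50, 0, 2.67, 6.45 and 0 with IgG and ranged from 3.53 to 34.9 with a median of 8.47 with anti-IL-38. It was the member at an unadjusted p under 0.05 (0.0235), with a log2 difference of 1.91 ± 0.75 (SE) and an adjusted p of 0.432, on reads of 0 to 37 per tumor. Its difference was 1.51 without IgG replicate 2, 1.51 without IgG replicate 5 and 1.58 without anti-IL-38 replicate 2. Cadm1 was at 1173, 1080.3, 1327, 1203 and 500.3 with IgG and ranged from 1021 to 1858 with a median of 1269.8 with anti-IL-38, a log2 difference of 0.44 ± 0.24 (SE) (adjusted p = 0.514). The 2 highest values were of anti-IL-38 tumors and the lowest was of IgG replicate 5, without which the difference was 0.19 (unadjusted p = 0.261).

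For the receptor Flt3, IgG tumors were at 6.61, 0.919, 5.35, 2.76 and 11.4 and anti-IL-38 tumors ranged from 0 to 20.7 with a median of 12.6, and the interval of the log2 difference ran from -1.01 to 2.37. The difference of 0.68 itself was 0.31 without IgG replicate 2 and 1.3 without anti-IL-38 replicate 3. Wdfy4 was at 419, 285, 239.7, 227 and 280.2 with IgG and ranged from 219.6 to 359 with a median of 277 with anti-IL-38, a log2 difference of -0.06 ± 0.18 (SE). The anti-IL-38 range lay within that of IgG but for its lowest tumor. Tlr3 was at 420.1, 575, 581, 459 and 344 with IgG and ranged from 471 to 889 with a median of 524 with anti-IL-38, a log2 difference of 0.26 ± 0.19 (SE) (adjusted p = 0.611). Replicate 3 of anti-IL-38 held the highest value, and the other 5 lay within the IgG range. The difference was 0.13 without that tumor and 0.15 without IgG replicate 5.

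Xcl1, the ligand, was at 16.1, 3.68, 16.9, 9.21 and 2.86 with IgG and ranged from 15.9 to 78.3 with a median of 29.3 with anti-IL-38. Of the 6 anti-IL-38 tumors, 5 were above every IgG tumor, and the log2 difference was 1.87 ± 0.50 (SE) at an adjusted p of 0.376. Its receptor Xcr1 was at 13.2, 19.3, 18.7, 2.76 and 0 with IgG and ranged from 8.09 to 14.1 with a median of 11.8 with anti-IL-38. The anti-IL-38 values lay inside the IgG range, and the log2 difference was 0.74 ± 0.71 (SE) (95% interval -0.79 to 2.27), although the anti-IL-38 median was below the IgG median of 13.2. It rested on IgG replicate 5 with 0 reads, and was 0.02 without that tumor (unadjusted p = 0.972).

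The second comparison asked whether IL-38 knockout changed these genes against WT tumors of the same experiment. None of the 9 members passed the test, and 1 of 16563 genes (0.00604%) did, the higher Gm10093 (log2 difference 4.03, adjusted p = 0.0298). edgeR called 0 genes and DESeq2 called 305 (1.84%), with no member among them. Of the 9 members, 6 were at an unadjusted p under 0.05, 5 lower and 1 higher in KO_IgG, where 12.1% of all genes were at that p and 5.4% were at that p and lower. Without KO_IgG replicate 4 there were 4 lower and 2 higher, beside 14% of all genes at that p and 5.36% lower, and again no member passed, where 7 genes (0.0431%) did. The 2 higher were Cadm1 and Tlr3. The count of 6 was 2 members without WT_IgG replicate 1 and to 2 without WT_IgG replicate 2, beside 7.87 and 7.86% of genes, and was 4 to 6 without any other library. The median log2 difference of the members was -0.51 with all 8 tumors and -0.49 without that library, against 0.005 and -0.01 for all genes. The 2 members whose groups did not overlap, Wdfy4 and Zbtb46, stand beside 7.06% of all genes.

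Irf8 was at 1717, 2176, 1567 and 1279 in WT_IgG and at 1239.5, 1106, 1455 and 384 in KO_IgG. Of the 4 KO_IgG tumors, 3 were below every WT_IgG tumor, and replicate 4 was lower than all the rest. The log2 difference was -0.82 ± 0.36 (SE) (adjusted p = 0.390) and -0.39 ± 0.18 (SE) without replicate 4. Batf3 was at 105, 146, 90.4 and 65.2 in WT_IgG and at 43, 68.4, 66.5 and 14.1 in KO_IgG. The lowest WT_IgG tumor lay just under the 2 highest KO_IgG tumors, and the log2 difference was -1.23 ± 0.46 (SE) (adjusted p = 0.338) or -0.74 ± 0.30 (SE) without replicate 4. Zbtb46 was at 119.5, 99, 90.4 and 109 in WT_IgG and at 71.1, 75.6, 63.4 and 81.8 in KO_IgG, without overlap. Its log2 difference of -0.51 ± 0.19 (SE) (adjusted p = 0.345) became -0.57 ± 0.21 (SE) without replicate 4, the highest KO_IgG tumor for this gene.

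Clec9a was at 46.8, 32, 28.6 and 27.5 in WT_IgG and at 24.3, 9.0, 29.4 and 7.05 in KO_IgG. Replicates 2 and 4 of KO_IgG were low and the other 2 were near the WT_IgG tumors. The log2 difference of -1.11 ± 0.47 (SE) (unadjusted p = 0.0380, adjusted p = 0.386) was -0.78 ± 0.44 (SE) without replicate 4, with an unadjusted p of 0.0987. Itgae was at 17.9, 16, 9.85 and 21.4 in WT_IgG and at 25.3, 20.7, 16.6 and 15.5 in KO_IgG, which overlap, and its log2 difference was 0.27 ± 0.38 (SE). Cadm1 was at 1081, 1097, 1655 and 1076 in WT_IgG and at 1853, 2252, 1314 and 1512 in KO_IgG, a log2 difference of 0.49 ± 0.20 (SE) (adjusted p = 0.364). It was the member counted on the higher side, with 1 high WT_IgG tumor among the KO_IgG values.

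Wdfy4 had the smallest p of the members: WT_IgG tumors were at 262, 249, 243 and 242 and KO_IgG tumors at 167, 163, 205 and 93.1. All KO_IgG values were below all WT_IgG values, which differed little among themselves. The log2 difference was -0.72 ± 0.23 (SE) (unadjusted p = 0.00846, adjusted p = 0.285), and -0.49 ± 0.16 (SE) without replicate 4 (adjusted p = 0.213). Flt3 was at 14.9, 13.2, 24.2 and 43.8 in WT_IgG and at 14, 11.7, 15.1 and 19.7 in KO_IgG, and the interval of its log2 difference was -1.45 to 0.45, around -0.50 with all tumors and -0.17 without WT_IgG replicate 4. Tlr3 was at 382, 442, 547 and 501 in WT_IgG and at 614, 558, 695 and 502 in KO_IgG, a log2 difference of 0.34 ± 0.16 (SE) (adjusted p = 0.417). The highest 3 of the 8 values were of KO_IgG.

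Xcl1 was at 16.9, 12.3, 11.6 and 12.2 in WT_IgG and at 25.3, 18.9, 46.1 and 22.6 in KO_IgG. Every KO_IgG tumor was above every WT_IgG tumor, and the log2 difference was 0.97 ± 0.38 (SE) (adjusted p = 0.351). Xcr1 was at 7.97, 0, 1.79 and 5.10 in WT_IgG and at 7.48, 1.80, 9.06 and 7.05 in KO_IgG, with a log2 difference of 0.91 ± 0.84 (SE) that its reads of 0 to 12 leave wide (95% interval -0.93 to 2.76), and 0.31 without WT_IgG replicate 2, which had 0 reads.

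Markers of other cell types were read beside these values. All 7 macrophage genes (Adgre1, C1qa, C1qb, C1qc, Csf1r, Mrc1 and Cd68) had lower means in KO_IgG, 2 at an unadjusted p under 0.05 and none past the test, and their summed normalized counts were 22395 to 30372 in WT_IgG and 10372 to 25119 in KO_IgG. Replicate 4 of KO_IgG had the lowest sum, 10372, and without it all 7 again had lower means, with none past the test. In the neutralization experiment the same sum was 29044 to 40018 with IgG and 24229 to 33244 with anti-IL-38. The sum of 9 T cell genes was 155 to 419 in WT_IgG and 107 to 339.9 in KO_IgG, and 8 of the 9 were lower in KO_IgG with none past the test. Replicate 4 held the KO_IgG maximum, and the other KO_IgG tumors were at 107, 118 and 214. Without replicate 4 again 8 of the 9 were lower, with none past the test. On anti-IL-38 all 9 were higher than with IgG, at 105 to 298 against 29.5 to 270.3, again with none past the test. The lowest IgG sum was of replicate 5, and the other IgG tumors were at 128 to 270.3. No macrophage or T cell gene of these lists was at 0 in a whole group. All 5 NK cell genes tested (Klrb1c, Klrk1, Gzmb, Eomes and Il2rb) were lower in KO_IgG and all 5 were higher on anti-IL-38, with none past the test. IgG replicate 5 had the lowest sum of the NK cell list as well, 15.2. The other IgG tumors were at 65.3 to 189, against 69.6 to 226 with anti-IL-38. The direction of the T cell and NK cell genes was not read without that tumor. All 5 epithelial genes were higher on anti-IL-38, and 2 of 5 were higher in KO_IgG. The part of these cell types in the members' differences was not tested.

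**Figure D2:**
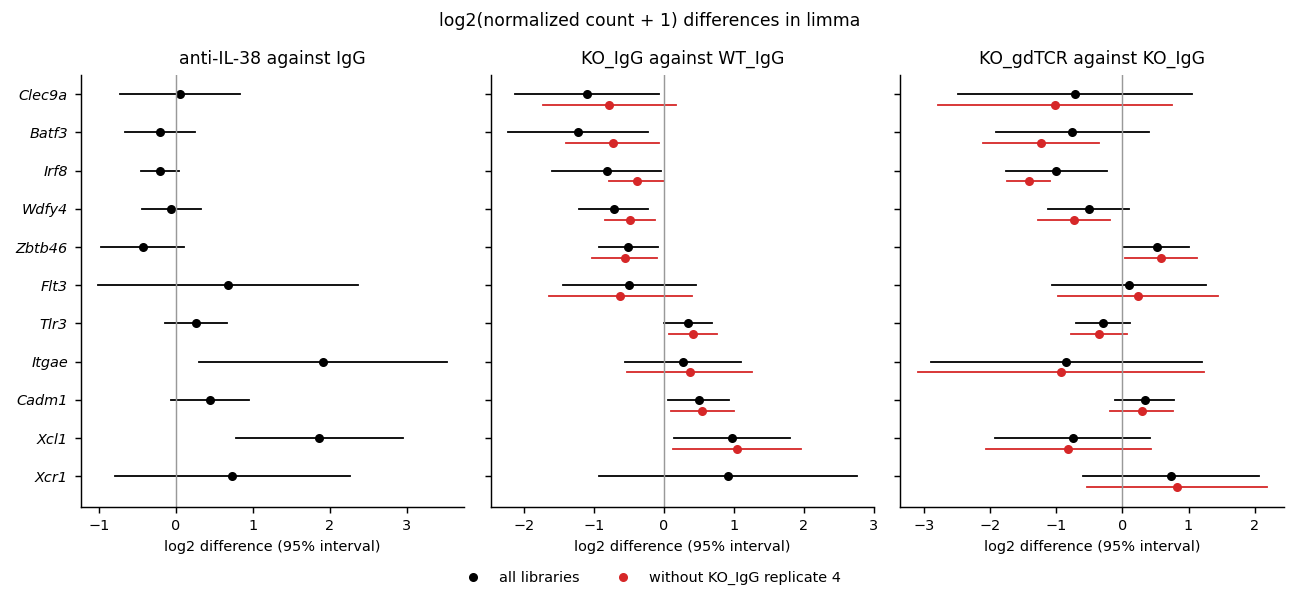
Differences of log2(normalized count + 1) (x axis) with 95% intervals of limma for the 9 members, Xcl1 and Xcr1 in 3 comparisons, with all libraries (black) and without KO_IgG replicate 4 (red); Xcr1 was below the filter in the red fit of knockout against WT. In the right panel the red point of Irf8 at -1.41 is the one member past the test.

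The third comparison asked what γδ TCR blockade changed in IL-38 KO tumors, within the table that holds both groups. With all 8 libraries no member passed the test in limma, and 0 of 16481 genes (0%) did, although 21.7% of genes were at an unadjusted p under 0.05, and 9% were so and lower. The members at that p were Irf8 on the lower and Zbtb46 on the higher side. DESeq2 called 1 member, Irf8, among 6.27% of genes called (3.7% lower), and edgeR called 0 genes. Without KO_IgG replicate 4, limma called 14.3% of genes, 4.85% lower, and Irf8 as the single member. At an unadjusted p under 0.05 there were then 4 members, 3 lower and 1 higher, beside 26.2% of genes, 11% lower. Leaving out any other library gave 0 to 2 members, beside 15.8 to 20.7% of genes. The 4 KO_gdTCR and the remaining 3 KO_IgG libraries are then also those with and without, in that order, the low depth and high pseudogene share described above, so that the blockade and that difference between libraries cannot be told apart.

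Irf8 was at 931, 839, 1124 and 300.4 normalized counts in KO_IgG and at 378, 358, 340.1 and 359.8 in KO_gdTCR. Replicates 1 to 3 of KO_IgG were above the narrow range of KO_gdTCR, and replicate 4 was below it. The log2 difference was -1.0 ± 0.35 (SE) (unadjusted p = 0.0159, adjusted p = 0.125) in limma, and -1.41 ± 0.15 (SE) (95% interval -1.74 to -1.09, adjusted p = 5.42e-05) without replicate 4. DESeq2 gave -1.15 at an adjusted p of 0.0163, and the adjusted p of this difference ran from 5.42e-05 to 0.321 over the alternatives. Batf3 was at 32.3, 51.9, 51.3 and 11 in KO_IgG and at 23.5, 18.3, 25.3 and 9.90 in KO_gdTCR. Replicates 1 to 3 of KO_IgG were above all KO_gdTCR tumors and replicate 4 lay among them. Its log2 difference was -0.76 ± 0.52 (SE) (adjusted p = 0.445), and -1.23 ± 0.40 (SE) without replicate 4 (adjusted p = 0.0652). For Zbtb46 the higher values were on the other side: KO_IgG was at 53.4, 57.3, 49 and 64.1 and KO_gdTCR at 96.8, 73.2, 65.1 and 89.1. The groups did not overlap, as for 9.54% of all genes, and the log2 difference was 0.52 ± 0.22 (SE) (adjusted p = 0.207).

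Clec9a was at 18.3, 6.82, 22.7 and 5.52 in KO_IgG and at 14.4, 20.6, 3.62 and 1.10 in KO_gdTCR, on 1 to 39 reads. High and low tumors occurred in both groups, and the log2 difference was -0.71 ± 0.80 (SE) (95% interval -2.48 to 1.05, adjusted p = 0.656). It was -0.10 without KO_gdTCR replicate 4 and -1.22 without KO_gdTCR replicate 2. Itgae was at 19, 15.7, 12.8 and 12.1 in KO_IgG and at 0, 14.9, 32.6 and 9.90 in KO_gdTCR, which held both the lowest and the highest value. Cadm1 was at 1391, 1707, 1015 and 1184 in KO_IgG and at 1625, 1705, 2115 and 1235 in KO_gdTCR, a log2 difference of 0.34 ± 0.20 (SE) (adjusted p = 0.378).

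Wdfy4 was at 125, 124, 158 and 72.9 in KO_IgG and at 57.6, 82.4, 99.5 and 90.2 in KO_gdTCR. Its 3 high values were the same 3 KO_IgG tumors as for Irf8, and replicate 4 again lay among KO_gdTCR. The log2 difference was -0.51 ± 0.28 (SE) (adjusted p = 0.322), and -0.73 ± 0.24 (SE) without replicate 4 (adjusted p = 0.0761). Flt3 was at 10.5, 8.87, 11.7 and 15.5 in KO_IgG and at 7.85, 22.9, 5.43 and 22 in KO_gdTCR, with the 2 lowest and the 2 highest values in KO_gdTCR. Tlr3 was at 461, 423, 537 and 393 in KO_IgG and at 317, 449, 441 and 293 in KO_gdTCR, a log2 difference of -0.29 ± 0.18 (SE) (adjusted p = 0.399).

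Xcl1 was at 19, 14.3, 35.6 and 17.7 in KO_IgG and at 3.92, 12.6, 19.9 and 17.6 in KO_gdTCR, with overlap and a log2 difference of -0.75 ± 0.53 (SE) (adjusted p = 0.455), or -0.30 without KO_gdTCR replicate 1. Xcr1 was at 5.62, 1.36, 7.0 and 5.52 in KO_IgG and at 11.8, 3.43, 9.05 and 9.90 in KO_gdTCR, a log2 difference of 0.73 ± 0.60 (SE) (adjusted p = 0.535). Of the 4 KO_gdTCR tumors, 3 were above every KO_IgG tumor, and without KO_IgG replicate 2 the difference was 0.34.

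Of the 7 macrophage genes, 6 were lower in KO_gdTCR, 5 at an unadjusted p under 0.05 in limma and none past the test. Of all genes, 9% were lower at that p. The macrophage sum was 8122 to 19404 in KO_IgG and 7432 to 10299 in KO_gdTCR, with replicate 4 of KO_IgG at 8122. Without that library all 7 were lower and 4 passed the test, among them Cd68, a lysosomal protein of macrophages (log2 difference -2.69), and Csf1r, the CSF1 receptor (-1.60). All 9 T cell genes were higher in KO_gdTCR, at sums of 161 to 208 against 80.1 to 266, and all 5 epithelial genes were higher, with none past the test. Replicate 4 held the KO_IgG maximum of 266, and the other KO_IgG tumors were at 80.1, 89.4 and 166. Without replicate 4 all 9 T cell genes were higher and none passed. Of these, 3 were at an unadjusted p under 0.05 in limma, beside 26.2% of all genes. Once KO_IgG replicate 4 was left out, the epithelial keratin Krt18 passed (log2 difference 0.69, adjusted p = 0.0115). Their part in the Irf8 difference was not tested.

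**Figure D3:**
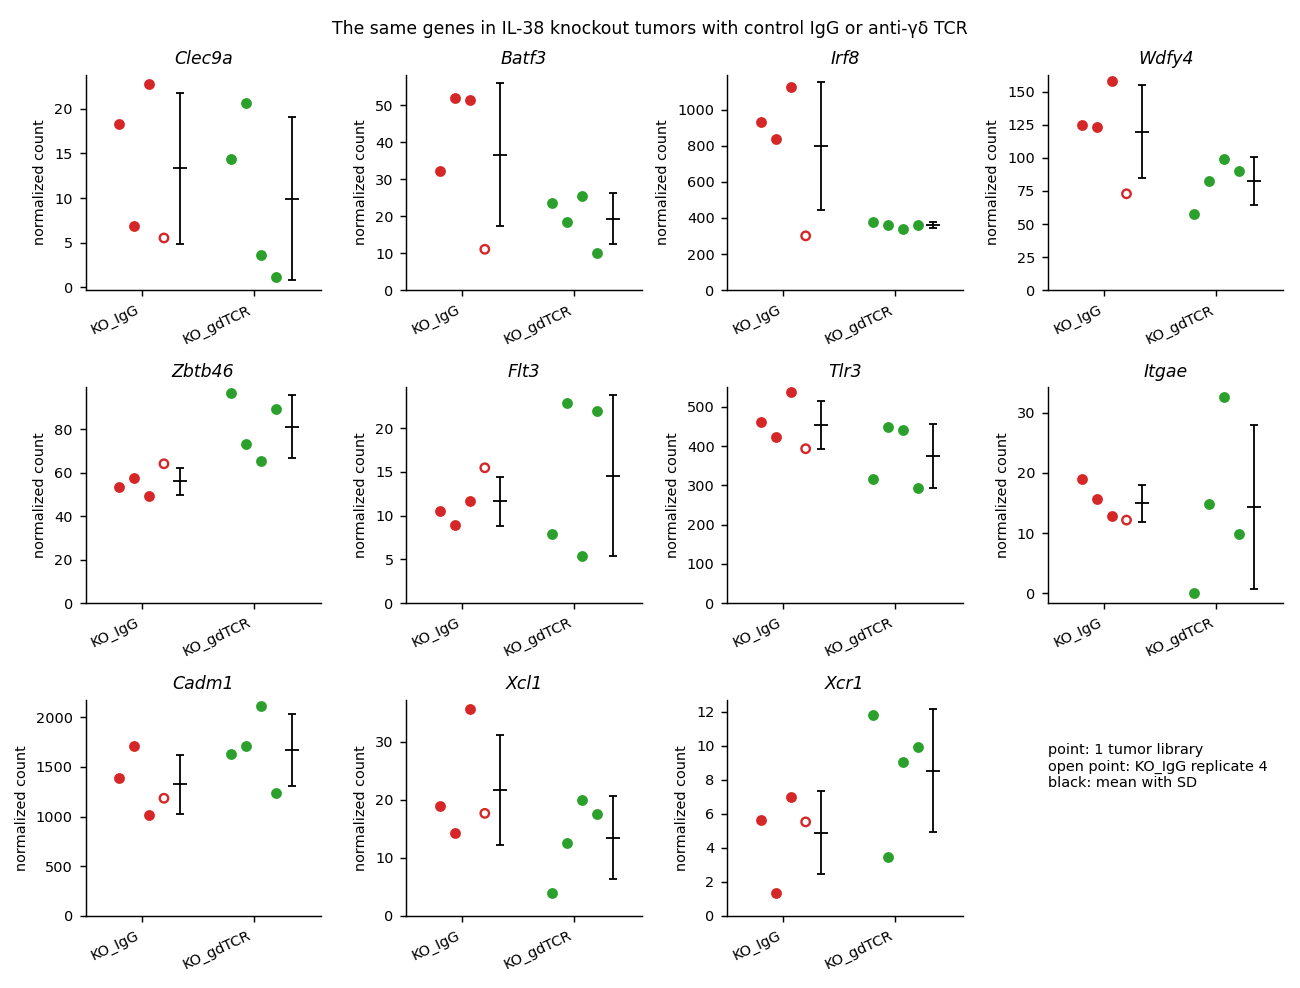
Normalized counts (y axis, linear) of the 9 members, Xcl1 and Xcr1 in 8 IL-38 KO tumors with IgG (KO_IgG) or anti-γδ TCR (KO_gdTCR); each point is 1 tumor, black marks give the mean and SD, and the open point is KO_IgG replicate 4. For Irf8 the open point lies below the 4 KO_gdTCR tumors and the other KO_IgG tumors lie above them.

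The last comparison pooled both ways of inhibiting IL-38 (anti-IL-38 and KO_IgG, 10 tumors) against both controls (IgG and WT_IgG, 9 tumors). It shares its tumors with the first and second comparisons and is no independent evidence. The IgG and WT_IgG mice had received different control antibodies. No member and 0 of 16352 genes (0%) passed the test in limma, with 3 of 9 members and 10.5% of genes at an unadjusted p under 0.05 (1 member and 4.13% of genes lower). edgeR called 1 gene and DESeq2 called 70 (0.428%), with no member among them. Without KO_IgG replicate 4, 0 of 16151 genes (0%) passed, and 3 members and 10.2% of genes were at an unadjusted p under 0.05. Leaving out other single libraries gave 2 to 6 members at that p, beside 8.40 to 12.98% of genes. With the experiment as a term in the fit, 7 members (Batf3, Irf8, Itgae, Cadm1, Zbtb46, Wdfy4 and Tlr3) stood beside 14.8% of genes at that p, and no member passed, where 1 gene (0.00612%) did. Adjusted p-values of these 7 in that fit ran from 0.206 for Zbtb46 to 0.323 for Wdfy4.

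The pooled log2 difference of Zbtb46 was -0.49 ± 0.19 (SE) (adjusted p = 0.388). The differences were -0.43 within the neutralization and -0.51 within the genotype experiment, and the pooled value was -0.54 without KO_IgG replicate 4. Cadm1 had a pooled log2 difference of 0.45 ± 0.17 (SE) (adjusted p = 0.388), from 0.44 and 0.49 within the experiments. Without IgG replicate 5 the values of Cadm1 were 0.31 pooled and 0.19 in the neutralization experiment, and without KO_IgG replicate 4 the pooled value was 0.45. Tlr3 had 0.29 ± 0.13 (SE) (adjusted p = 0.424), from 0.26 and 0.34, and 0.31 without KO_IgG replicate 4. Pooled differences of the 4 members lowest in that library were smaller without it: Batf3 went from -0.61 to -0.36, Irf8 from -0.44 to -0.23, Clec9a from -0.42 to -0.25 and Wdfy4 from -0.31 to -0.18. For Xcl1 the pooled log2 difference was 1.48 ± 0.34 (SE) (adjusted p = 0.185, and 0.0145 to 0.339 over the alternatives), from 1.87 and 0.97, and 1.52 without KO_IgG replicate 4.

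Whether the antibody and the knockout acted differently on a member was tested as the difference between their effects. No member passed, beside 1 of 16352 genes (0.00612%), and 1 member against 7.67% of genes was at an unadjusted p under 0.05. That member was Wdfy4, at 0.66 log2 (95% interval 0.05 to 1.27, adjusted p = 0.614). The intervals of Batf3 (-0.01 to 2.05) and Clec9a (-0.08 to 2.40) just held 0. Without KO_IgG replicate 4 no member was at an unadjusted p under 0.05, beside 7.72% of genes, and no member passed, beside 2 genes (0.0124%). The difference of Wdfy4 was then 0.43 (95% interval -0.10 to 0.96, adjusted p = 0.739), and the intervals of Batf3 and Clec9a were -0.23 to 1.29 and -0.38 to 2.05.

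Among the members themselves, Clec9a, Batf3, Irf8 and Wdfy4 had the 6 highest correlations of any pairs from tumor to tumor. Over 19 tumors with group means removed, the Spearman rho was 0.788 for Clec9a with Irf8, 0.719 for Batf3 with Irf8, 0.672 for Batf3 with Wdfy4, 0.656 for Irf8 with Wdfy4, 0.604 for Clec9a with Wdfy4 and 0.444 for Clec9a with Batf3. These are descriptions over tumors that differ in depth and cell content, and the set of 4 was read from the values. Macrophage genes outside the members also followed Irf8. Csf1r, Cd68 and C1qb had a rho of 0.886, 0.879 and 0.825 with it, above every pair of members, and C1qc was lowest at 0.235. With Clec9a the macrophage genes ran from 0.202 for C1qc to 0.688 for C1qb. Every other pair of members had a rho between -0.570 and 0.284, the lowest for Cadm1 with Zbtb46. With KO_IgG replicate 4 left out, rho was 0.856 for Clec9a with Irf8, 0.593 for Clec9a with Wdfy4 and 0.521 for Irf8 with Wdfy4. The pairs of Batf3 were lower without that library, at 0.455 with Irf8, 0.439 with Wdfy4 and 0.236 with Clec9a, and the last of these was below 3 pairs outside the set.

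KO_IgG replicate 4 is far from the other tumors on Irf8, and Pearson's r on the log2 values was read with and without it. Left uncentred, so that differences between groups enter, r of Irf8 was 0.930 with Batf3, 0.867 with Wdfy4 and 0.765 with Clec9a. Without the 2 tumors farthest from the median, KO_IgG replicates 2 and 4, these were 0.801, 0.615 and 0.458. With group means removed, r was 0.863 with Batf3, 0.708 with Wdfy4 and 0.700 with Clec9a, and without those 2 tumors 0.700, 0.352 and 0.697. Within the neutralization experiment, which does not hold those libraries, r was 0.493 for Batf3, 0.413 for Wdfy4 and 0.760 for Clec9a over 11 tumors.

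**Figure D4:**
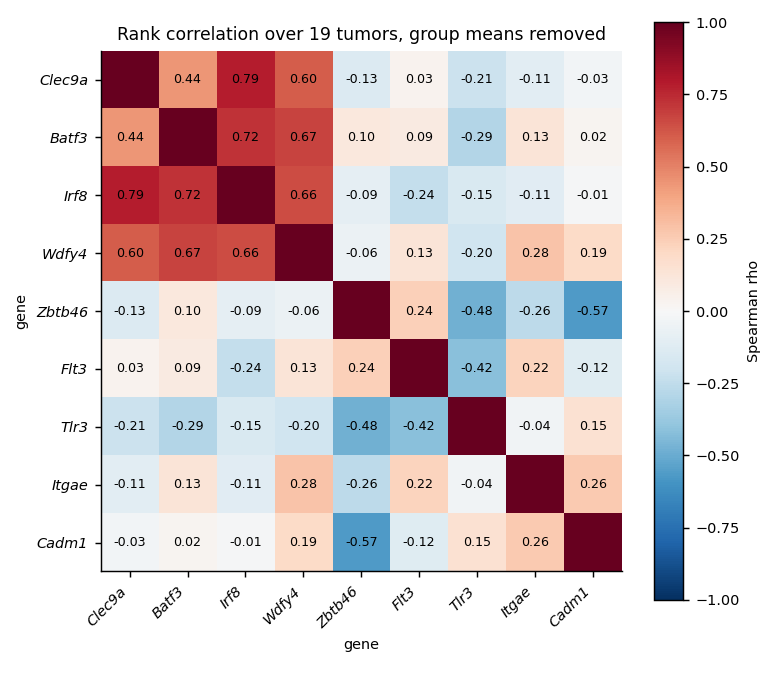
Spearman rho between each pair of the 9 members over 19 tumors after the group means were taken off (color and printed value; both axes list genes). Pairs among Clec9a, Batf3, Irf8 and Wdfy4 have rho from 0.444 to 0.788 with KO_IgG replicate 4 included, and Cadm1 with Zbtb46 is the lowest pair at -0.570.

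XCL1 attracts XCR1-bearing cDC1, and the members were therefore related to Xcl1 and Xcr1 per tumor, 18 relations in all. With the 4 groups as terms over 19 tumors, no member passed for its slope on Xcl1 in limma, and neither did any of 16351 genes (0%). A single member and 10.1% of genes were at an unadjusted p under 0.05. That member was Itgae, with a slope of 0.98 ± 0.29 (SE) log2 per log2 of Xcl1 (unadjusted p = 0.00308, adjusted p = 0.331). Correlations were permuted over all tumors, so differences between groups enter r, rho and their p unless group means were removed. Over the 19 tumors Pearson's r of Itgae with Xcl1 was 0.704 (permutation p = 0.00122) and Spearman's rho was 0.401 (permutation p = 0.0895). Without the 2 tumors farthest from the median of Xcl1, IgG replicate 5 and anti-IL-38 replicate 2, r was 0.501 and rho 0.164, so that the relation rests in part on them. Within the neutralization experiment r was 0.864, and within the genotype experiment 0.279.

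Clec9a had a slope on Xcl1 of -0.05 (95% interval -0.54 to 0.44). The slope was -0.27 within the neutralization experiment (unadjusted p = 0.254 in limma). Within the genotype experiment it was 1.39 (95% interval 0.21 to 2.58, unadjusted p = 0.0253 in limma). There Clec9a was the 1 member under 0.05, beside 466 of 16562 genes, and 0 genes passed. The r of Clec9a with Xcl1 was -0.184 (permutation p = 0.448) and rho -0.126 (permutation p = 0.607), and r was -0.0563 without the 2 farthest tumors. Cadm1 had r = 0.597 with Xcl1 (permutation p = 0.00881) and rho = 0.470 (permutation p = 0.0439). With group means removed these were 0.401 (permutation p = 0.0883) and 0.163 (permutation p = 0.503). With groups kept, r of Cadm1 was 0.281 without the 2 farthest tumors, so that this relation rests on them. It was 0.734 and 0.226 within the neutralization and genotype experiments. Slopes with group terms there were 0.34 and -0.53 (unadjusted p = 0.0158 and 0.0517 in limma). For Tlr3 r was 0.477 (permutation p = 0.0393) and rho 0.437 (permutation p = 0.0610), with r = 0.332 without the 2 farthest tumors and 0.438 and 0.654 within the experiments. The slope of Tlr3 with group terms was 0.09 (adjusted p = 0.831 in limma). Zbtb46 stood on the negative side, with r = -0.556 (permutation p = 0.0136) and rho = -0.526 (permutation p = 0.0225), and r = -0.337 without the 2 farthest tumors. Its r was -0.720 and -0.781 within the 2 experiments, where differences between groups still enter. In the genotype experiment both Zbtb46 and Xcl1 separated KO_IgG from WT_IgG. The slope of Zbtb46 with group terms was -0.23 at an adjusted p of 0.519 in limma. It was -0.25 ± 0.15 (SE) within the neutralization experiment (unadjusted p = 0.115) and -0.11 ± 0.28 (SE) within the genotype experiment (unadjusted p = 0.711). Without group terms, where differences between groups enter the slope, 1 member passed for Xcl1, namely Itgae (adjusted p = 0.0478), among 147 of 16351 genes.

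In the table of 8 KO_IgG and KO_gdTCR tumors the relations to Xcl1 were read with exact permutation tests. Wdfy4 had r = 0.803 (exact permutation p = 0.0136) and rho = 0.714 (exact permutation p = 0.0576), where its r was -0.113 over the 19 tumors. Zbtb46 had r = -0.757 (exact permutation p = 0.0167) and rho = -0.714 (exact permutation p = 0.0576), and Itgae had r = 0.809 (exact permutation p = 0.0581). KO_gdTCR replicate 1 had the least Xcl1 (3.92), Wdfy4 (57.6) and Itgae (0) and the most Zbtb46 (96.8). These relations were not read without that tumor, and they keep the difference between the groups. Slopes with group terms were 0.39 for Wdfy4, -0.20 for Zbtb46 and 1.61 for Itgae (adjusted p = 0.923, 0.939 and 0.923 in limma). The 4 KO_IgG tumors are among the 19, so this table is not independent of them, and no member passed for its slope on Xcl1 in it.

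Xcr1 itself had r = 0.454 with Xcl1 (permutation p = 0.0517), rho = 0.384 (permutation p = 0.107) and r = 0.185 without the 2 farthest tumors. No member passed for its slope on Xcr1, beside 8 of 16351 genes (0.0489%), and no member was at an unadjusted p under 0.05, where 13.5% of genes were. For Clec9a, which cDC1 express together with Xcr1, r with Xcr1 was 0.0331 (permutation p = 0.893) and rho 0.110 (permutation p = 0.652), and r was 0.365 without IgG replicate 5 and WT_IgG replicate 2. Zbtb46 had r = -0.484 with Xcr1 (permutation p = 0.0360) and rho = -0.548 (permutation p = 0.0170). With group terms its slope on Xcr1 was -0.04 (adjusted p = 0.866 in limma). Without the 2 farthest tumors r was -0.368, it was -0.404 and -0.221 within the neutralization and genotype experiments, and it had the other sign, 0.480, in the table of KO_IgG and KO_gdTCR. At 0 to 21 reads of Xcr1 and 3 to 83 reads of Xcl1 per tumor, weak relations were not detectable.

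**Figure D5:**
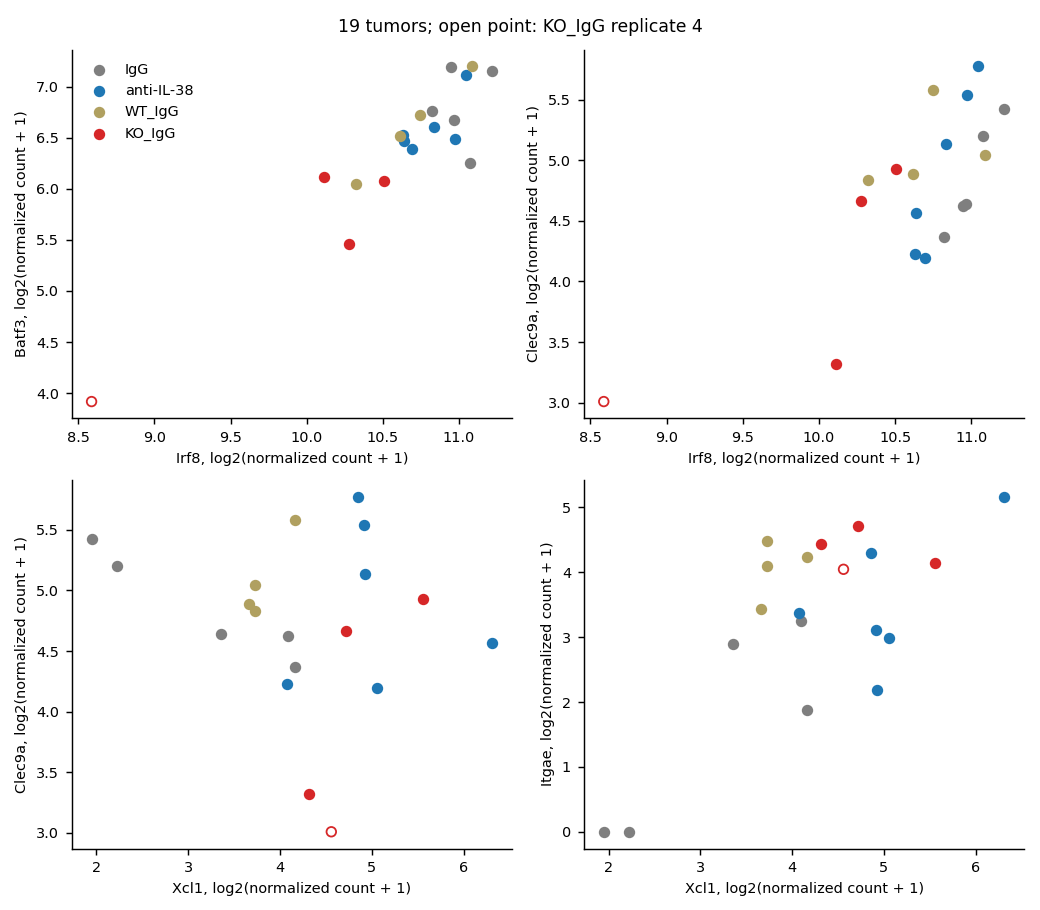
log2(normalized count + 1) of pairs of genes in 19 tumors, colored by group, with KO_IgG replicate 4 open; the axes name the genes. Batf3 and Clec9a have r = 0.930 and 0.765 with Irf8 when group differences are kept, Clec9a has r = -0.184 with Xcl1, and the 2 IgG tumors with Itgae at 0 are those with the least Xcl1.

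Other genes of the cDC1 pathway were read from lists. Of 10 further cDC1 genes 7 were tested, and 0 passed in the 4 comparisons with all libraries. Of 8 genes of cross-presentation (Tap1, Tap2, Tapbp, B2m, Psmb8, Psmb9, Sec22b and Rab43) all were tested and 0 passed. On anti-IL-38 6 of these 8 were higher, with Tap2, a subunit of the peptide transporter, at a log2 difference of 2.30 (adjusted p = 0.412) and the immunoproteasome subunit Psmb8 at 0.45 (adjusted p = 0.420). In KO_IgG 4 were higher and 4 lower than in WT_IgG, with Tap2 at a log2 difference of 1.36 (adjusted p = 0.283) and Psmb8 at -0.59 (adjusted p = 0.210). Of 6 growth factor genes of dendritic cells (Flt3, Flt3l, Csf2, Csf2ra, Csf2rb and Kitl) 4 were tested, and 0 passed.

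Of 9 cytokine and chemokine genes of cDC1, 8 or 9 were tested in a comparison and 0 passed. In KO_IgG 8 of 9 were lower than in WT_IgG, with Ccl5, which attracts T cells and cDC1, at -0.84 (adjusted p = 0.210). Of 7 genes of MHC class II and of all dendritic cells 0 passed, and Itgax (CD11c) was lower in KO_gdTCR than in KO_IgG at -2.38 (adjusted p = 0.0657). Of cDC2, mature and plasmacytoid dendritic cell genes, 6, 7 and 4 or 5 were tested and 0 passed in each comparison with all libraries.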

How the data were processed

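The data are 3′ mRNA sequencing (QuantSeq) of 23 dissociated mouse tumors in 5 groups, taken from the sample titles and treatments. The deposited values are normalized counts, a signal per gene that the authors made by dividing read counts by a size factor per library, in a table of 19 libraries and a table of 8 that repeats the 4 KO_IgG libraries. The submitters' processing notes name STAR, HTSeq, DESeq2 and GRCm39 without roles or versions, and the study's methods name the BlueBee QuantSeq pipeline. The 2 tables were scaled separately, so tests stayed within a table. In every library the values were whole multiples of 1 read within 0.0001%, and these reads gave library totals, CPM and count models. Such totals count reads and not molecules, and limits from 0 counts cover counting error only.

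Gene symbols came from GENCODE M21, which named 47224 of 47643 identifiers. Tests were limma 3.58.1 (R 4.3.3, moderated with a trend, two-sided) on log2(normalized count + 1) for genes with a mean of at least 5, with Benjamini-Hochberg adjustment over all genes tested and a threshold of 0.05. A fold on this scale understates the change of low genes. Intervals are 95%. Slopes on Xcl1 and Xcr1 used the same model with groups as terms, and correlations used two-sided permutation tests. Alternatives were edgeR 4.0.16 and DESeq2 1.42.0 on the reads, quantile and TMM scaling, pseudocounts of 0.5 and 5, a minimum of 20 or none, fits blocked on the replicate number or with a term for the experiment, and fits without each library in turn. Scripts were tested on simulated data. No libraries were alike within sampling noise. The labels do not say that each library is a separate mouse, and p-values then measure the spread between these samples.

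The members and lists were chosen with earlier results of these data known. Named genes are the members, Xcl1 and Xcr1 with all values, up to 4 genes of a list by the smallest p in a comparison, up to 3 genes past the threshold per comparison, and the 5 genes most like the members and Clec9a across tumors. Markers of macrophages, T cells, NK cells and epithelial cells were read beside the members. All columns of samples were used.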

Additional observations from a re-analysis of the deposited data

Results flagged for a closer look

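Among 55 groups of 4 to 6 tumors tested for a sample far from the others, 5 were flagged, and chance flags about 1 in 20 groups. Batf3 of anti-IL-38 replicate 5 (137 normalized counts), Tlr3 of anti-IL-38 replicate 3 (889) and Xcl1 of anti-IL-38 replicate 2 (78.3) each lay far above the other 5 tumors of the group. Cadm1 of WT_IgG replicate 3 (1655) and Xcl1 of WT_IgG replicate 1 (16.9) each lay far above the other 3 tumors of theirs. The tumor with the high Xcl1 in anti-IL-38 is also the one with the most Itgae, and it is among the 2 left out of the Xcl1 relations in the report.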

How the results depend on the processing

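Of 895 alternatives to the 44 log2 differences, 878 kept the direction and 17 reversed it. The number of genes called depended on the tool. On anti-IL-38 DESeq2 called 75 genes and the replicate block 1, and leaving out single libraries gave 0 to 6 (6 without IgG replicate 3). In KO_IgG against WT_IgG, with 1 gene in limma, DESeq2 called 305, edgeR and the replicate block called 0, and leaving out single libraries gave 0 to 7 (7 without KO_IgG replicate 4 and without WT_IgG replicate 3). In KO_gdTCR against KO_IgG DESeq2 called 1033 genes and 1 member, and leaving out single libraries gave 0 to 2357 genes and 0 to 1 member, both highest without KO_IgG replicate 4. In the pooled comparison edgeR called 1 gene, DESeq2 70 and the fit with experiment as a term 1, and leaving out single libraries gave 0 to 23 (23 without IgG replicate 3). For the difference between antibody and knockout effects edgeR called 0 genes against 1, and 2 were called without KO_IgG replicate 4. The Xcl1 relation without group terms called 1 member among 147 of 16351 genes, where the main fit called 0. The replicate numbers pair no samples (correlations of same-numbered tumors from -0.169 to 0.0746, and 2 of 4 KO_IgG and WT_IgG numbers correlated best with their own), and the block changed no member's call.

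Small log2 differences reversed. On anti-IL-38 Clec9a was -0.025 with quantile normalization, -0.071 with the block and -0.12 to 0.20 leaving out single libraries, and Wdfy4 was -0.14 to 0.082 leaving them out. In KO_gdTCR against KO_IgG Itgae was -1.49 to 0.20 and Flt3 -0.18 to 0.45 leaving them out, and Flt3 was -0.26 with quantile normalization. Pooled, Flt3 was -0.11 in edgeR and in DESeq2 and -0.19 to 0.50 leaving libraries out. The slope of Clec9a on Xcl1 was 1.39 within the genotype experiment and 0.25 without the 2 farthest tumors, and that of Itgae was -0.041 within the genotype experiment. The slope of Clec9a on Xcr1 was -0.076 within the neutralization experiment, -0.12 in the blockade table and -0.034 on CPM of 23 libraries. The cause was not tested. Slopes, relations, levels in CPM and the difference between the antibody and knockout effects without KO_IgG replicate 4 were added after seeing the data, as were relations of group deviations without the 2 farthest tumors. Depth limits Clec9a, Itgae, Flt3 and Xcr1, which had 0 to 52 reads per library, and Xcl1, which had 3 to 83.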

Other observations

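Genes outside the members that resemble them were ranked over 13574 genes by Spearman rho across 19 tumors with group means removed, as a description. Closest to the mean z score of the 9 members were Clmp (rho = 0.902), Emb (0.900), Ccr1, a chemokine receptor of myeloid cells (0.863), Dcstamp (0.854) and Layn (0.853). Closest to Clec9a were Lcp2, an adaptor of leukocyte receptors (0.833), Gm26520 (0.832), Haus8 (0.828), Pfkfb4 (0.816) and Aim2, a DNA sensor (0.816). Closest to Irf8, a ranking added after its values were seen, were Csf2rb, the shared receptor chain for GM-CSF (0.960), the macrophage receptor Trem2 (0.953), Lsp1 (0.949), Slc36a2 (0.944) and Mertk, which takes up dying cells (0.939). Of the macrophage genes, Csf1r and Cd68 had a rho of 0.886 and 0.879 with Irf8, and C1qa had 0.398. Without KO_IgG replicate 4 the rho with the mean z score was 0.668 for Clmp and 0.889 for Emb, that of Aim2 with Clec9a was 0.825, and those with Irf8 were 0.911 for Csf2rb, 0.804 for Csf1r, 0.752 for Cd68 and 0.146 for C1qa.

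Under γδ TCR blockade, without KO_IgG replicate 4, genes of the dendritic cell and cross-presentation lists outside the members passed the test in both directions. Lower in KO_gdTCR were Csf2rb (log2 difference -4.32), Itgax (-3.04), the chemokines Ccl22 (-4.75) and Ccl17 (-2.39) of mature dendritic cells, Ccl3 (-3.26) and Naaa (-0.95). Csf2ra (-1.02), Cxcl16 (-0.68) and Itgam (-3.03) were lower as well. In this fit 14.3% of all genes passed, and all 7 macrophage genes were lower, with 4 of them past the test. Higher were Il12b, the p40 chain of IL-12 (3.98), Cxcl9, which attracts activated T cells (0.99), and Psmb9 (1.05). These genes were named after their values were seen, none of them passed with all libraries, and the blockade cannot be told apart from the difference between libraries.

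Flt3l was not analysed here. Gm45713, whose annotated span in GENCODE M21 holds 97.0% of that of Flt3l on the same strand, had 27 to 223 reads per library and is not read as Flt3l. Its log2 differences were 0.28 on anti-IL-38 (adjusted p = 0.751), -0.15 in KO_IgG against WT_IgG (adjusted p = 0.815) and 0.50 in KO_gdTCR against KO_IgG (adjusted p = 0.315) in limma.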
